A study of Homo sapiens with 3 samples.

Results

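The genes described here write, copy, read and remove DNA methylation: the methyltransferases DNMT1, DNMT3A and DNMT3B, the hemimethylation readers UHRF1 and UHRF2, the oxidising enzymes TET1, TET2 and TET3, and the methyl-CpG binding protein MBD2. Members were all probe sets whose only annotated symbol was 1 of these 9 genes, which gave 19 probe sets of the 54675 on the array. The study measured messenger RNA in KMS11, an established human multiple myeloma cell line with a t(4;14) translocation, in which MMSET, the histone methyltransferase gene now called NSD2, comes under immunoglobulin enhancers. All 3 groups were infected with a lentivirus in the presence of polybrene and collected at 48 h, and each group was 1 array. The control carried shLuc, a short hairpin RNA against luciferase, a gene absent from human cells, and the other groups carried shMMSET#2 or shMMSET#4, hairpins against MMSET. The labels mention no selection of infected cells, so each array is a bulk measurement of 1 cell line. In such a sample, fewer cells that express a gene and less RNA per cell cannot be told apart.

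DNA methylation in mammals is placed mostly on cytosines that precede guanine (CpG sites). DNMT3A and DNMT3B set new marks, and DNMT1 copies them onto the new strand behind the replication fork, where UHRF1 recognises the half-methylated site and recruits it. TET enzymes oxidise 5-methylcytosine, after which the glycosylase TDG and base excision repair can restore plain cytosine, and MBD2 brings the NuRD deacetylase complex to methylated DNA. DNMT3A and DNMT3B bind histone H3 that is methylated on the lysine that NSD2 modifies.

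Values are MAS5 signals, linear intensities per probe set, as deposited, with signals under 41.2 set to that floor before ratios were taken. Where 1 of the compared signals was at the floor, the fold is a lower bound and reads "at least". Signals are listed in the order shLuc, shMMSET#2, shMMSET#4, and pairs of folds in the order shMMSET#2, shMMSET#4. Because no group had a replicate, no error or p-value can be given for any value below, and "higher" and "lower" describe these 3 arrays. Both hairpins are compared with the same shLuc array, so an error in that array would move both ratios together. The scatter available is that of shMMSET#4 against shMMSET#2, real differences between hairpins included. Over 25458 tested probe sets it stayed within 1.29-fold for the median probe set and within 2.37-fold for 95% of them. A probe set counted as tested when its signal was above the array's median on at least 1 array. The plasma cell and KMS11 markers fixed for the label, 8 in number, were above the array median on all 3 arrays, with summed signals of 99460, 57840 and 96830. Of the markers of other lineages, the myeloid genes CD14, LYZ and CSF1R stayed between 2.02 and 82.4 and the T cell genes between 15.7 and 105, whereas 2 of 3 epithelial markers were above the median on all arrays, EPCAM at 4391 to 10651. The T cell, fibroblast and endothelial lists each had 1 of 3 above it and the myeloid list 0 of 3. HBB, the erythroid marker measured here, was above it on all arrays at 196 to 307, and VWF and CDH5 were at the floor throughout. Their part in the results was not tested. Of the control genes probed at either end of their transcripts, ACTB had a 3' minus 5' log2 signal of 1.70, 1.14 and 1.14, highest on the shLuc array. GAPDH had 0.04, 0.10 and 0.0019, with no such gap, and the part of these measures in the results was not tested. The targeted gene NSD2 was lower with shMMSET#2 on 6 of 6 probe sets, with a median log2 ratio of -1.33, and lower with shMMSET#4 on 5 of 6, with a median of -0.48.

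**Figure D1:**
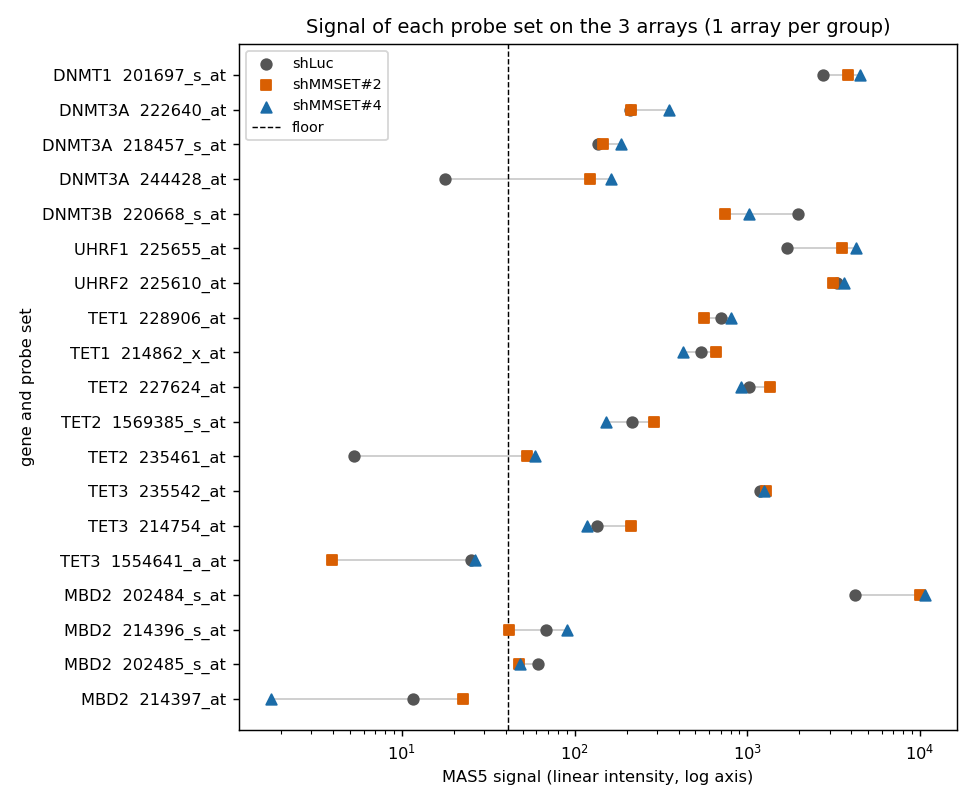
MAS5 signal (log axis) of each of the 19 probe sets on the shLuc, shMMSET#2 and shMMSET#4 arrays, 1 point per array, with the floor of 41.2 as a dashed line. UHRF1 and the bright MBD2 probe set are higher with both hairpins, DNMT3B is lower with both, and 2 probe sets lie under the floor on all arrays.

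A probe set was counted as higher (or lower) where shMMSET#2 and shMMSET#4 each stood 1.5-fold or more above (or below) shLuc. By this rule 3 of the 19 were higher, 1 was lower and 15 were neither. The higher ones belonged to UHRF1, MBD2 and DNMT3A, and the lower one to DNMT3B. All 4 were among the 15 probe sets that passed the filter. The DNMT3A probe set, the dim 244428_at, passed it only through the hairpin arrays, so the filter favoured a higher value. It is also among the 3 higher at 2-fold with each hairpin, given below. Among all tested probe sets 8.17% were higher and 13.2% were lower by the same rule. The median log2 ratio over the 19 was 0.12 with shMMSET#2 and 0.14 with shMMSET#4 (0.28 and 0.19 over the 15 that passed), against -0.05 and -0.06 over all tested probe sets. At 2-fold with a single hairpin, 3 probe sets were higher with shMMSET#2 (background 6%) and 1 was lower (background 10.6%), and 3 were higher with shMMSET#4 (background 6.02%) and 0 were lower (background 10.8%). Of the 15 probe sets with no array at the floor, 8 stayed less than 1.5-fold from shLuc on both hairpin arrays.

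**Figure D2:**
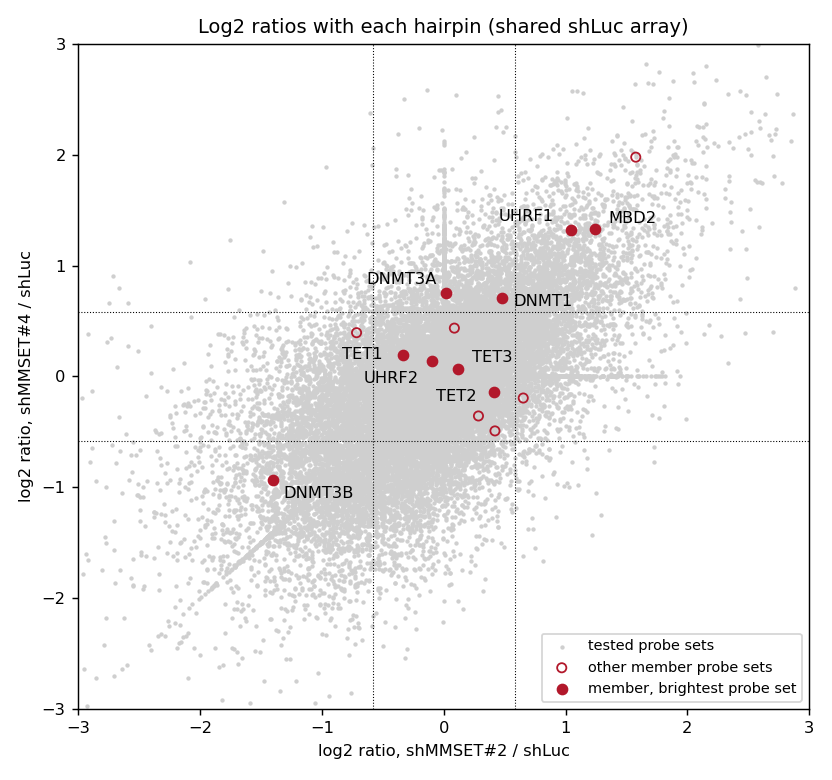
Log2 ratio to shLuc with shMMSET#2 (x axis) and shMMSET#4 (y axis) for 25458 tested probe sets (grey; 53 lie outside the axes) and the 15 tested member probe sets (red, filled for the brightest of each gene); dotted lines mark 1.5-fold. UHRF1 and MBD2 lie in the upper right corner and DNMT3B in the lower left, and the diagonal spread of the grey points includes the error of the shLuc array shared by both axes.

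The maintenance pair differed from shLuc in the same direction with both hairpins, UHRF1 more than DNMT1. UHRF1, which reads hemimethylated DNA and guides DNMT1, had signals of 1702, 3517 and 4242 on its only probe set, 225655_at. Both hairpin arrays were above the control, by 2.07-fold and 2.49-fold. Among probe sets of like brightness, 95% differed by less than 2.01-fold between the hairpins, so both folds exceed that spread. DNMT1, the copying enzyme, had signals of 2748, 3830 and 4478 on 201697_s_at. Its 1.39-fold and 1.63-fold differences are inside the 1.87-fold spread of probe sets as bright. The first is under the 1.5-fold threshold, so DNMT1 was not counted as higher in the deposited scaling. In the brightest 20% of tested probe sets, which hold UHRF1 and DNMT1, 9.68% were higher and 5.77% were lower with both hairpins. UHRF2, the paralogue of UHRF1, had signals of 3322, 3113 and 3648 on 225610_at. Its 1.07-fold lower and 1.10-fold higher values are within the spread, and nothing beyond it separates the 3 arrays for this gene.

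The promoters of this pair are shown because both genes are known to be expressed with S phase, which E2F transcription factors drive. The motif searched was TTTNNCGC, where N is any base, on both strands. This is a loose form of the core of E2F sites, so a match need not be such a site, and it contains a CpG itself. It was present in 6.89% of 35116 RefSeq promoter windows of 300 bases (250 before to 50 after an annotated start, GRCh38.p14). All 9 genes matched the table, with 20 windows, and the motif was in 3 of these, belonging to DNMT1 and UHRF1. The stretches below run 5′ to 3′ on the gene's strand from 180 bases before to 20 bases after the start, with motif matches in capitals.
DNMT1, chr19:10194934-10195133, minus strand: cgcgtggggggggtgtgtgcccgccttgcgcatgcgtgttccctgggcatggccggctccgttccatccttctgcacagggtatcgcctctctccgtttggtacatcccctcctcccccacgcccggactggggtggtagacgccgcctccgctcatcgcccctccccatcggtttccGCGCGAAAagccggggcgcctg
UHRF1 window 1, chr19:4909321-4909520, plus strand: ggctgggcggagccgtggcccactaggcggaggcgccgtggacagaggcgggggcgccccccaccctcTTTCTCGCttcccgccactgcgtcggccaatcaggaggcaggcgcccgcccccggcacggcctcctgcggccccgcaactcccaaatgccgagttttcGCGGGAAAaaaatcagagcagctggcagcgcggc
UHRF1 window 2, chr19:4909964-4910163, plus strand: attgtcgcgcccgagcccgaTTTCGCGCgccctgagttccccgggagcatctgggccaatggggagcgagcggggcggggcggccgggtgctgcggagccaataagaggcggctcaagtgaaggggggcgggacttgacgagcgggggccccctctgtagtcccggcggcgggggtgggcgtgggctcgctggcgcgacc
In DNMT1 the match overlaps the annotated start, and in UHRF1 window 1 matches begin 112 and 14 bases before it. The UHRF1 window 2 match begins 160 bases before its start. These UHRF1 starts lie 6421 and 7064 bases inside the gene's RefSeq span, and the third UHRF1 window has no match. These matches describe letters only: the arrays hold no measurement of factor binding.

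The de novo enzymes did not move together. DNMT3B had signals of 1958, 740 and 1025 on its only probe set, 220668_s_at. Both hairpin arrays were below the control, by 2.64-fold and 1.91-fold. The first fold exceeds the 2.10-fold spread of probe sets as bright and the second does not. DNMT3A had 3 probe sets. The brightest, 222640_at, had signals of 209, 212 and 352, a 1.01-fold and a 1.68-fold difference, inside the 2.39-fold spread at this brightness. On 218457_s_at the signals were 137, 145 and 185, or 1.06-fold and 1.35-fold higher. The dim probe set 244428_at had a signal of 17.7 with shLuc, under the floor, and 123 and 162 with the hairpins, that is, higher by at least 2.98-fold and 3.94-fold. It passed the filter only through the hairpin arrays, which favours a higher value, and the other DNMT3A probe sets do not show a difference of that size. DNMT3A thus has no value beyond the spread on its brighter probe sets.

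MBD2, the reader that recruits NuRD, was higher with both hairpins on 1 of its 4 probe sets. The bright probe set 202484_s_at had signals of 4222, 9999 and 10633. That is 2.37-fold and 2.52-fold higher, beyond the 1.87-fold spread of probe sets as bright, and the hairpin arrays differed by 1.06-fold. The others were dim and did not show it. On 214396_s_at the signals were 68.5, 41.7 and 90.0, which is 1.64-fold lower with shMMSET#2 and 1.31-fold higher with shMMSET#4. This probe set passed the filter only through shMMSET#4. On 202485_s_at they were 61.2, 47.6 and 48.6, and 214397_at was under the floor on all 3 arrays.

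The CpG content of the promoter windows of MBD2 and DNMT3B, the members furthest from shLuc in each direction among bright probe sets with 1 window, is shown next, since CpG is the substrate of these enzymes. CpG sites are in capitals, and both stretches run 5′ to 3′ over the same distances from the RefSeq start (GRCh38.p14).
MBD2, chr18:54224650-54224849, minus strand: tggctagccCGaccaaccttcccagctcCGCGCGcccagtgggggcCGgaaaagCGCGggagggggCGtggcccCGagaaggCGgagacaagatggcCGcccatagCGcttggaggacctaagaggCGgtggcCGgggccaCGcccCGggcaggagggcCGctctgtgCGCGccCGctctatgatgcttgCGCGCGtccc
DNMT3B, chr20:32779672-32779871, plus strand: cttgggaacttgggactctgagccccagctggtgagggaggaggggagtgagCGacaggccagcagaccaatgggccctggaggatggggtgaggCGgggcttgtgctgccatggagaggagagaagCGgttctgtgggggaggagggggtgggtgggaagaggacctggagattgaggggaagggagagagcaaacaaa
The MBD2 stretch holds 23 CpG sites and the DNMT3B stretch 3. Over whole windows MBD2 had 32 and DNMT3B 3, against a median of 14 over all windows. The DNMT3B window starts 17467 bases inside the gene's RefSeq span, so it is an internal start and not the outermost one. The arrays do not measure methylation, so whether any of these sites was methylated is not known from these data.

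**Figure D3:**
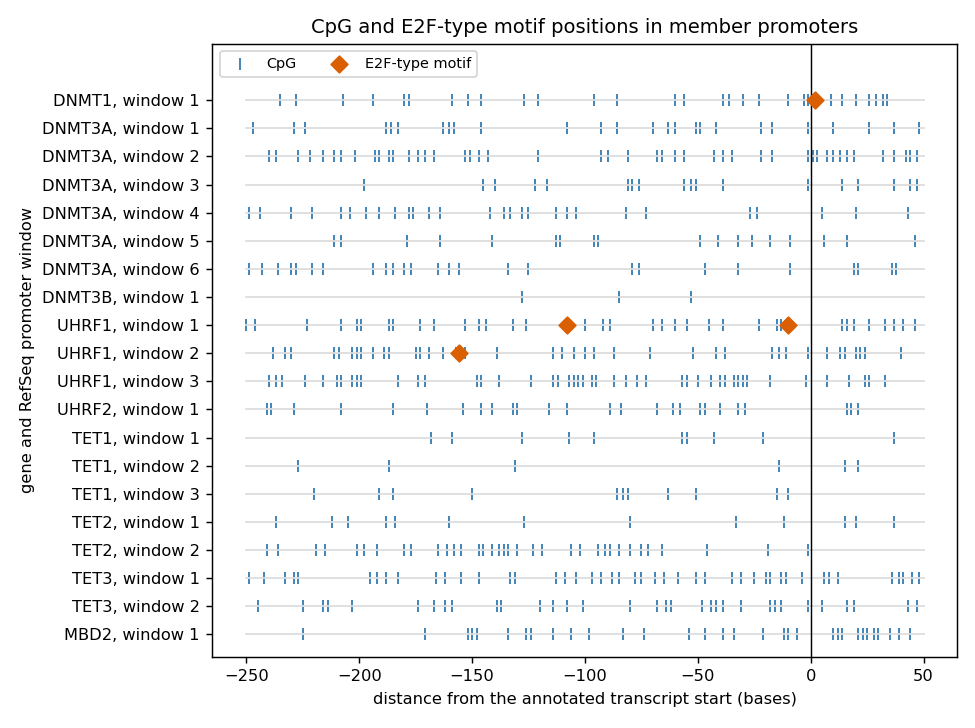
Positions of CpG sites (bars) and E2F-type motifs (diamonds) in the 20 RefSeq promoter windows of the 9 genes, plotted by distance in bases from the annotated start. The motif appears in windows of DNMT1 and UHRF1, and the DNMT3B window holds 3 CpG sites, the fewest of the 20.

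No tested TET probe set was counted as higher or lower with both hairpins. TET1 had 2 probe sets that disagreed. On 228906_at the signals were 701, 558 and 801, and on 214862_x_at they were 542, 660 and 423, so the hairpins stand in opposite order on them and no TET1 difference can be read. TET2, an enzyme often mutated in blood cancers, was measured by 2 probe sets above the floor on all arrays. On 227624_at the signals were 1020, 1355 and 923, and on 1569385_s_at they were 214, 287 and 152. Both probe sets were 1.33-fold to 1.34-fold higher with shMMSET#2 and 1.10-fold to 1.41-fold lower with shMMSET#4, all within the spread. The third TET2 probe set, 235461_at, was dim, with signals of 5.29, 52.8 and 58.6, that is, higher by at least 1.28-fold and 1.42-fold. TET3 had signals of 1184, 1282 and 1241 on 235542_at, at most 1.08-fold from shLuc. On 214754_at TET3 had signals of 134, 211 and 117, and 1554641_a_at was under the floor on all arrays. Among the tested TET probe sets, folds reached at most 1.57 with shMMSET#2 and 1.41 with shMMSET#4.

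Set against each other, the hairpin arrays give a ratio free of the shared control. For DNMT1, DNMT3A, DNMT3B, UHRF1 and UHRF2 the signal was higher with shMMSET#4 than with shMMSET#2 on 7 of 7 probe sets, by 1.17-fold to 1.66-fold. Among all tested probe sets 47.1% were higher with shMMSET#4. The grouping of members by role was not planned beforehand, and over all 19 member probe sets 12 were higher with shMMSET#4. The 7 include every DNMT3A probe set, among them the dim 244428_at. For the TET genes 5 of the 7 probe sets not at the floor throughout were lower with shMMSET#4 and 2 were higher. Of the TET2 probe sets, 227624_at and 1569385_s_at were 1.47-fold and 1.88-fold lower with shMMSET#4 than with shMMSET#2, and the dim 235461_at was 1.11-fold higher. For MBD2, 3 of 3 probe sets not at the floor throughout were higher with shMMSET#4, by 1.02-fold to 2.16-fold. The 2.16-fold value is from the dim 214396_s_at, which passed the filter only through shMMSET#4, where its signal was highest. The bright MBD2 probe set differed by 1.06-fold. Each of these values from a tested probe set is inside the spread between the hairpin arrays at its brightness, and on 6 of 6 probe sets NSD2 had the lower signal with shMMSET#2.

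**Figure D4:**
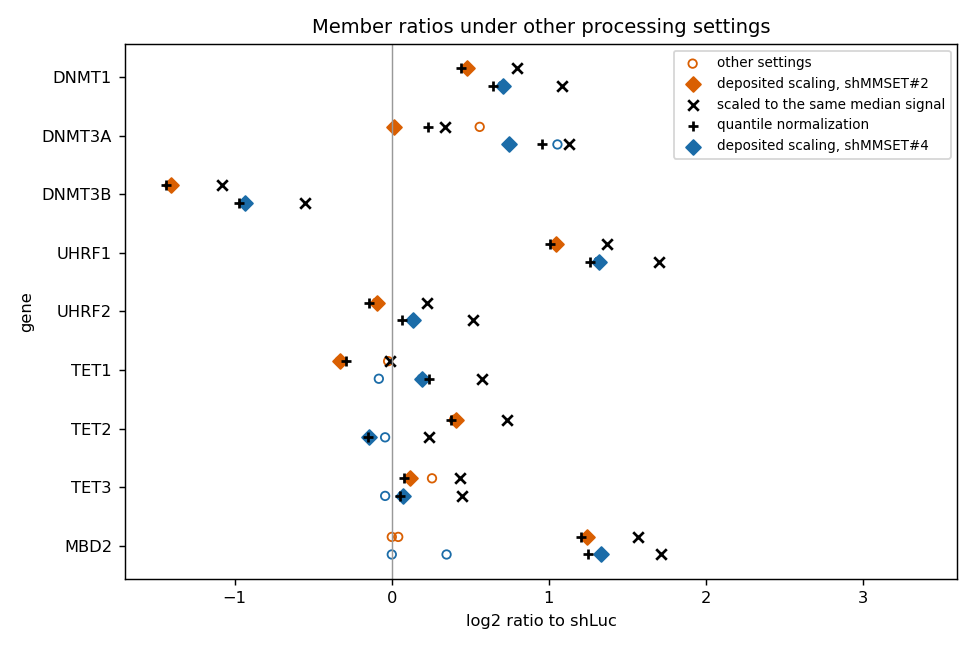
Log2 ratio to shLuc of each gene on its brightest probe set with shMMSET#2 and shMMSET#4, in the deposited scaling (diamonds), after scaling to the same median signal (crosses), after quantile normalization (plus signs) and under the other settings (open circles, including 1 that averages every probe set of a gene). UHRF1 stays at or above 1.01 and DNMT3B at or below -0.55 throughout, whereas MBD2 reaches 0 where only its dim probe set is left.

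With all arrays brought to 1 common median signal, the median log2 ratio of all tested probe sets became 0.24 with shMMSET#2 and 0.29 with shMMSET#4. Under this scaling UHRF1, MBD2 and DNMT1 were further above shLuc and DNMT3B was closer to it. DNMT1 was then at 0.80 and 1.09 on the log2 scale, so that it passed 1.5-fold with both hairpins. In all, 4 member probe sets were then higher with both. DNMT3B was then at -1.08 and -0.55 on the log2 scale, so that it was no longer 1.5-fold lower with shMMSET#4. The ratios of UHRF2 with shMMSET#2 and of TET2 with shMMSET#4 changed sign under it, to 0.23 and 0.24.

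The pathway around these genes was described with 7 lists, on the brightest probe set of each gene, where 8.6% of 13296 tested genes were higher and 11.9% lower with both hairpins and the medians were -0.04 and -0.02. Of 14 tested methyltransferase partners and regulators, 3 were higher, 0 were lower and 11 were neither; list medians were 0.25 and 0.64. HELLS, a chromatin remodeller needed for methylation of repeats, had signals of 1421, 2811 and 3290, or 1.98-fold and 2.32-fold higher. The other tested HELLS probe sets were higher, by 1.60-fold to 2.93-fold with shMMSET#2 and 1.18-fold to 2.84-fold with shMMSET#4. A dim HELLS probe set that was not tested was lower, with both hairpins at the floor. CDCA7L, a relative of the HELLS activator CDCA7, was 1.90-fold and 2.11-fold higher, and DMAP1, a binding partner of DNMT1, was 3.601-fold and 2.004-fold higher. USP7, the deubiquitinase that stabilises UHRF1 and DNMT1, and PCNA, the clamp that carries DNMT1 at the fork, were 1.21-fold and 1.20-fold higher with shMMSET#2 and 1.88-fold and 1.90-fold higher with shMMSET#4; both were picked once their values had been seen. These are the brightest probe sets. The other USP7 probe sets were 2.04-fold and 2.35-fold, 1.81-fold and 1.64-fold and, on a dim one, 1.17-fold and 1.08-fold higher.

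Of 8 tested methyl-CpG readers other than MBD2, 0 were higher and 0 were lower with both hairpins, with medians of -0.19 and -0.14. ZBTB38, a zinc finger reader chosen after its values were seen, was 2.58-fold and 1.498-fold lower on its brightest probe set, just short of the threshold. Its signals were 27816, 10768 and 18569, and its 4 other probe sets were 1.83-fold to 4.39-fold lower. Of 12 NuRD subunit genes, 1 was higher, 0 were lower and 11 were neither. That gene was RBBP4, a histone chaperone subunit, 3.72-fold and 3.94-fold higher on the brightest of 6 probe sets. The log2 ratios of the others spanned -0.60 to 1.43 (shMMSET#2) and -0.80 to 1.51 (shMMSET#4), with both signs present. Medians of this list were 0.24 and 0.17.

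Of 17 tested genes of active demethylation and base excision, 2 were higher, 0 were lower and 15 were neither; list medians were -0.07 and 0.15. TDG, which excises the products of TET oxidation, had signals of 2073, 7375 and 5159, but on its other probe set the folds were 1.17 upward and 1.11 downward. UNG, the uracil glycosylase, was 4.49-fold and 8.43-fold higher on its only probe set. Among those counted as neither and named after their values were seen, PARP1, a sensor of strand breaks, was 1.02-fold and 2.06-fold higher. GADD45A, a stress-induced gene, was 2.28-fold and 1.01-fold lower. LIG3, a DNA ligase, differed between its probe sets, from 1.29-fold and 1.11-fold lower on the brightest to 2.36-fold and 3.04-fold higher on 1 of the dim ones.

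The 10 tested genes often silenced by promoter methylation held 4 that were lower with both hairpins, 0 that were higher and 6 that were neither, with medians of -0.86 and -0.48. The list had 19 measured genes, and those not tested were too dim on every array, so these counts and medians leave them out. CDKN2B, an inhibitor of cell cycle kinases, had signals of 2536, 519 and 499.95. Its dim probe set, with signals of 24.3, 47.6 and 21.1, was at the floor with shLuc and shMMSET#4 and did not show a fall. RASSF1, a scaffold protein gene, was 2.61-fold and 2.20-fold lower. CDH1, the epithelial cadherin, was 11.9-fold and 1.75-fold lower. The 11.9-fold value rests on a dim shMMSET#2 signal, just above the floor and under that array's median, so its size is uncertain. The other CDH1 probe set was under the floor on all 3 arrays and cannot show a fall. SOCS1, a brake on cytokine signalling, was 1.90-fold and at least 2.39-fold lower, with a dimmer probe set higher by at least 2.13-fold and 1.19-fold. The brighter SOCS1 probe set passed the filter only through shLuc, so it had to be lower with the hairpins. The dimmer one passed only through shMMSET#2. With the filter on the mean signal, 3 genes of this list were lower with both hairpins. Of the germline genes, named after their values were seen, MAGEA1, MAGEA4 and MAGEC2 were at the floor on all 3 arrays on their brightest probe sets. CTAG2 had a bright probe set that was 1.12-fold and 1.32-fold higher, whereas the dimmer was 1.16-fold and 1.17-fold lower. SYCP3, a gene of the meiotic chromosome axis, had signals of 2797, 770 and 2621, which is 3.63-fold and 1.07-fold lower.

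Of 25 tested S phase genes, 13 were higher with both hairpins, 0 were lower and 12 were neither; list medians were 0.79 and 0.85. CDC6, MCM5, MCM2, CDC45, CHAF1B and FEN1 ranked first by the smaller of their ratios. CDC45, a helicase component, had signals of 335, 881 and 1357, and FEN1, the flap endonuclease, had 2257, 5701 and 5832. CHAF1B, a subunit of the assembly factor that places histones behind the fork, was 3.56-fold and 2.59-fold higher. Its signals were 60.4, 215 and 157, and it passed the filter only through the hairpin arrays, which favours a higher value. With the filter at the 75th percentile, 12 S phase genes were higher. CDC6, MCM5 and MCM2, which load or form the replicative helicase, were 2.996-fold, 2.89-fold and 2.87-fold higher with shMMSET#2 and 3.45-fold, 3.12-fold and 2.70-fold higher with shMMSET#4. CCNE2 and TYMS, chosen after their values were seen, were 4.38-fold and 2.10-fold lower with shMMSET#2 and within 1.10-fold of shLuc with shMMSET#4 on their brightest probe sets. Another bright TYMS probe set was 2.10-fold lower with shMMSET#2 and 1.38-fold higher with shMMSET#4. A dim TYMS probe set, which passed the filter only through the hairpin arrays, was 1.94-fold and 1.65-fold higher. The part of the S phase genes in the values of UHRF1 and DNMT1 was not tested.

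By distance between the log2 ratios, over 3 arrays and 99 tested genes of these lists, the genes nearest to UHRF1 were HELLS (0.12), MCM6 (0.20) and CDCA7L (0.27). MCM6, a helicase subunit, was 1.89-fold and 2.24-fold higher, and on a dim probe set 1.07-fold lower and 2.14-fold higher. Nearest to DNMT1 were KDM2B (0.05), MTRR (0.13) and RFC4 (0.14), at 1.42-fold, 1.30-fold and 1.49-fold higher with shMMSET#2 and 1.68-fold, 1.54-fold and 1.52-fold higher with shMMSET#4. With 3 arrays such likeness rests on only 2 ratios per gene.

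**Figure D5:**
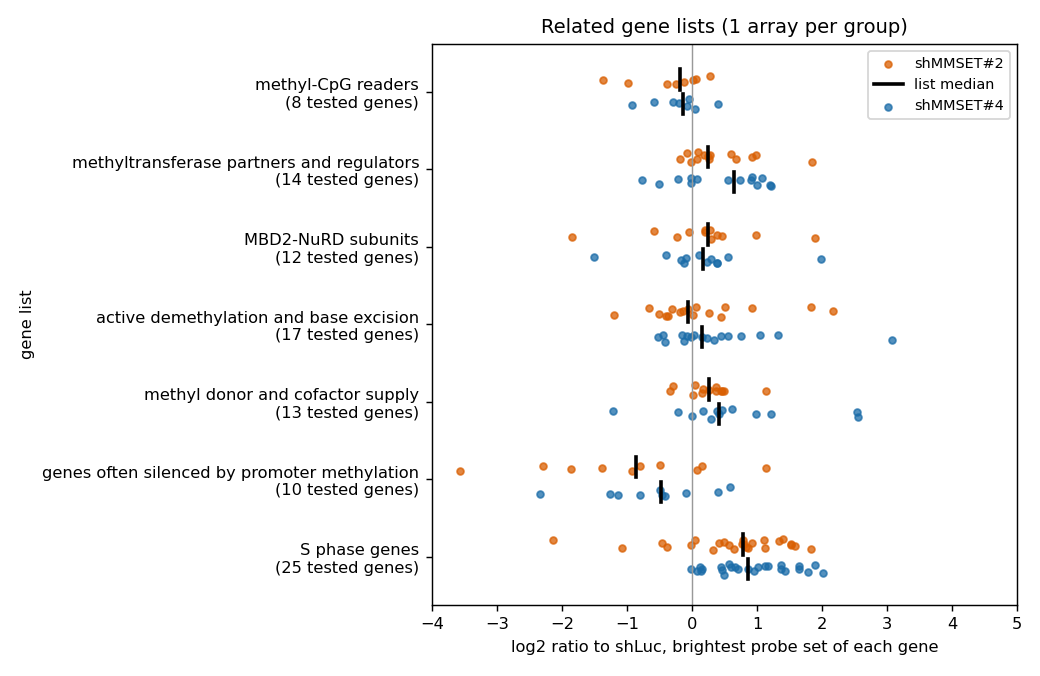
Log2 ratio to shLuc with shMMSET#2 (orange) and shMMSET#4 (blue) on the brightest probe set of each tested gene of the 7 lists, with list medians as black bars. The S phase genes have medians of 0.79 and 0.85, and the genes often silenced by promoter methylation have medians of -0.86 and -0.48.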

How the data were processed

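Messenger RNA was measured in 3 KMS11 samples, 1 array each. The deposited values are linear MAS5 intensities per probe set, per the submitters' processing notes, and GeneSpring is named in the series' design text; neither source used here states versions or settings. That text names the HG-U133 A array, but the 54675 identifiers are those of HG-U133 Plus 2.0. The 2% trimmed mean was 500.1 on each array, so no rescaling was done, and that scaling assumes alike bulk signal. The median signal was 77.4, 62.0 and 59.5 on the shLuc, shMMSET#2 and shMMSET#4 arrays. The number of arrays, 3, limits precision.

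Leaving out 62 control probe sets, 41091 had 1 symbol in the platform annotation, updated by Entrez identifier through RefSeq (GRCh38.p14). The floor was the 40th percentile over all arrays (41.2), which 36.2%, 41.2% and 42.6% of probe sets did not exceed, and ratios were taken as log2. Genes took the probe set of highest mean signal. Named were all members, NSD2, up to 6 list genes past 1.5-fold with both hairpins, and the 3 nearest to DNMT1 and UHRF1; others are marked as chosen after their values were seen. The members and lists were chosen with earlier results of these data known. Alternatives were 2 other scalings, floors, filters, probe set rules and thresholds. Steps were tested on simulated data, with changes planted only in bright probe sets and less noise than the spread between the hairpin arrays. That checks the code and does not bear on calls for dim probe sets. Software was scipy 1.17.1, matplotlib 3.10.9, pandas 2.3.3 and numpy 2.4.6 under Python 3.11.15.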

Additional observations from a re-analysis of the deposited data

How the results depend on the processing

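No result changed direction where it was called. Of the 230 alternative values computed for counts and medians, 191 stayed within the limits set for them and 39 did not; of 104 for single genes, 4 did not. Scaling to the same median signal gave medians over the tested members of 0.60 (shMMSET#2) and 0.57 (shMMSET#4), 5 probe sets higher with shMMSET#4 and 0 lower with both hairpins. It gave 4 NuRD, 5 demethylation, 6 methyl donor, 5 partner and 1 often silenced gene higher. Quantile normalization gave 2 NuRD genes and 1 often silenced gene higher. With the floor at the 60th percentile, or with no filter on dim probe sets, the member median with shMMSET#2 was 0.12. When every probe set of a gene was averaged, 0 NuRD genes were higher, 1 reader and 2 often silenced genes were lower, and MBD2 came to 0.04 and 0.35 on the log2 scale. TET1 and TET3 with shMMSET#4 then had values of -0.08 and -0.04. Removal of the _x_at and _s_at probe sets took out DNMT1 and DNMT3B and left MBD2 with a probe set at the floor. Then 0 members were lower with both hairpins or with shMMSET#2, 0 NuRD and 0 demethylation genes and 1 partner were higher, and 1 often silenced gene was lower. At 2-fold with both hairpins, 0 members were lower, 6 S phase genes and 1 partner were higher, and 2 often silenced genes were lower. At 3-fold, 0 members were higher with both hairpins, 0 with shMMSET#2 and 1 with shMMSET#4, and 0 were lower with both or with shMMSET#2. The 1 higher with shMMSET#4 was the dim DNMT3A probe set 244428_at. At 3-fold 0 S phase, 0 methyl donor and 0 partner genes and 1 demethylation gene were higher, and 1 often silenced gene was lower. At 1.5-fold with a single hairpin, 5 members were higher with shMMSET#4, 1 was lower with it and 2 were lower with shMMSET#2. Except for the removed probe sets and the thresholds, the cause was not tested. No paired analysis was possible because the groups share only 1 replicate number and hold 1 array each, and for the same reason no array could be left out. Dim probe sets close to the floor limit what MBD2, TET2, TET3 and DNMT3A can show.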

Other observations

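A further list held genes that supply the methyl donor and the cofactor of these enzymes. Methyltransferases use S-adenosylmethionine, and TET enzymes use 2-oxoglutarate, which isocitrate dehydrogenases make. Of 13 tested genes of this list, 1 was higher with both hairpins, 0 were lower and 12 were neither, with median log2 ratios of 0.26 and 0.42. The higher gene was IDH2, the mitochondrial isocitrate dehydrogenase, with signals of 579, 1279 and 3406 in the order shLuc, shMMSET#2, shMMSET#4, and its dimmer probe set was 1.62-fold and 2.20-fold higher. SHMT2, which feeds the one-carbon cycle from serine in mitochondria, was chosen after its values were seen. Its 3 probe sets were 1.07-fold to 1.41-fold higher with shMMSET#2 and 5.78-fold to 11.7-fold higher with shMMSET#4. IDH1, the cytosolic isocitrate dehydrogenase and also chosen after its values were seen, had signals of 5215, 4113 and 2244, which is 1.27-fold and 2.32-fold lower. MAT2A, which makes S-adenosylmethionine, and its regulatory partner MAT2B were likewise chosen after their values were seen. MAT2A had a bright probe set that was 1.22-fold lower and 1.22-fold higher and a dimmer that was 1.13-fold and 1.64-fold higher. MAT2B was 1.30-fold and 1.34-fold higher on its brightest probe set.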
